A study of Mus musculus with 24 samples.

Results

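Giant ubiquitin ligases are unusually long enzymes that attach ubiquitin to other proteins. The 7 genes described here, Herc1, Herc2, Huwe1, Ubr4, Mycbp2, Birc6 and Trip12, were taken by symbol from the 39253 genes of the deposited expected-count table, and all 7 were listed and tested. The table covers 24 libraries of Neuro2A cells, a mouse neuroblastoma line labelled wild-type, in 8 groups of 3 biological replicates. In 6 groups, plasmids encoding RfxCas13d, HiFi-RfxCas13d or DiCas7-11, which are RNA-guided enzymes that bind and cut RNA, were delivered by transient transfection with the crRNA targeting the mouse ataxin-2 mRNA (mATXN2) or with a crRNA that has no target (NTG), and the cells were lysed after 48 hr. The remaining groups were left untransfected or received an ASO, an antisense oligonucleotide directed at ataxin-2, whose delivery the labels do not describe. In the deposited table, the control and targeting columns are headed EV and G12 where the sample labels give NTG and G10, so it is uncertain whether the controls held a crRNA or an empty vector. They are called NTG after the labels. The targeting groups rest on a single crRNA, and the labels name no selection of transfected cells. In such bulk samples, a change in the number of cells that hold a transcript and a change in its amount per cell cannot be told apart.

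Ubiquitin passes from an activating enzyme (E1) to a conjugating enzyme (E2), and a ligase (E3) then chooses the protein that receives it, which commonly marks that protein for the proteasome. Herc1, Herc2, Huwe1 and Trip12 end in a HECT domain, which carries ubiquitin on its own cysteine before handing it on. Ubr4 reads destabilizing N-terminal residues, Mycbp2 passes ubiquitin through a RING-linked relay and is known for its role in axon growth and degeneration, and Birc6 is an inhibitor-of-apoptosis protein that also carries its own conjugating domain. In neurons, these enzymes are known for control of proteostasis, axon integrity and cell survival.

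Long coding sequences are what the 7 genes share. In the GENCODE M21 annotation of GRCm38, the longest coding sequence was 15540 bases in 106 exons for Ubr4, 14646 bases in 73 exons for Birc6, 14577 bases in 78 exons for Herc1, 14508 bases in 93 exons for Herc2, 14238 bases in 85 exons for Mycbp2 and 13134 bases in 83 exons for Huwe1. Trip12 was shorter, with 6075 bases in 41 exons. The median of the tested genes with an annotated coding length was 1416 bases, and 0.528% of them reached 10000 bases.

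The promoters of Ubr4 and Herc2, the genes with the widest range of group means, and of Trip12, the gene with the narrowest, are shown so that their start sites can be compared. RefSeq promoter sequences of GRCm38.p6, 250 bases before to 50 bases after a start site, were at hand for 6 of the genes in 7 windows, with 2 windows for Herc2. Each is written 5′ to 3′ on the strand of the gene, and capitals mark GC boxes (GGGCGG, or CCGCCC on the other strand) and ETS motifs (CGGAAG, or CTTCCG). Where the capitals in Ubr4 run over 9 bases, both motifs overlap.
Ubr4, chr4:139380409-139380708, plus strand: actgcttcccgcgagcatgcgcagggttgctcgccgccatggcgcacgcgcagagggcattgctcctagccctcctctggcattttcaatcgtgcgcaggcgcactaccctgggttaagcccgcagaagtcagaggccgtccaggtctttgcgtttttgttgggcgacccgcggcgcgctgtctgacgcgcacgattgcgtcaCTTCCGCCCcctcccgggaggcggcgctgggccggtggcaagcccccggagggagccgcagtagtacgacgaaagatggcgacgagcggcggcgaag
Herc2, chr7:56049905-56050204, plus strand: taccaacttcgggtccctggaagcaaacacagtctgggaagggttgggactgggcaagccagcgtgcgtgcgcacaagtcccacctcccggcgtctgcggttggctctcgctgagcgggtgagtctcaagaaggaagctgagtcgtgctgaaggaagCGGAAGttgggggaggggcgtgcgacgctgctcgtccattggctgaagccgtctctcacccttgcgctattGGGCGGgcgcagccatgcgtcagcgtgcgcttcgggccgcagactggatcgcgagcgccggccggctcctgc
Trip12, chr1:84839255-84839554, minus strand: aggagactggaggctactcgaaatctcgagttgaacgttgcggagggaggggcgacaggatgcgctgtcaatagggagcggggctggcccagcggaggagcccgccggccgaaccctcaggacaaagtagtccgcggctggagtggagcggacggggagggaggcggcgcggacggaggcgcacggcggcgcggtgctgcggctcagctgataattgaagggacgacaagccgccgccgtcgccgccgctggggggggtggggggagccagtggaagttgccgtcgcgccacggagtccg

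A GC box lay in the windows of 5 of the 6 genes, Trip12 being without one, and 35.7% of all 32851 promoter windows held it. ETS motifs lay in 3 genes, Herc2, Ubr4 and Birc6 (16.9% of all windows), and the NRF1 motif GCGCATGC, or GCATGCGC, in 3 genes, Huwe1, Ubr4 and Birc6 (2.71% of all windows). The CCAAT box (CCAAT or ATTGG) lay in 1 gene, Herc2 (37.4%), and neither an E-box (CACGTG, 7.15%) nor a TATA motif (TATAAA or TTTATA, 13.6%) lay in any of the 7 windows. The windows held 21 CpG dinucleotides in Birc6, 29 and 38 in the windows of Herc2, 30 in Herc1, 31 in Huwe1 and 37 each in Ubr4 and Trip12, where the median of all windows was 7. These matches describe the letters in a window and are no evidence of binding.

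The libraries held between 12665725 and 22504999 expected counts. The 3 ASO libraries were the deepest, at 21874644 to 22504999. Replicates differed by more than counting noise in every group (chi-square per gene 1.68 to 5.59), and most among the NTG libraries of DiCas7-11 (3.34 to 5.59). Summed neuroblast markers lay between 1173 and 1253 CPM (counts scaled to a common library size) in all 24 libraries, with Hand2, Tubb3 and Chga among the highest. Of that list of 13, Nefl and Nefm were at or near 0. Th, Dbh, Gata3 and Stmn2 were also low, with medians of 0.902, 2.63, 3.85 and 6.21 CPM. The summed markers of astrocytes, microglia and oligodendrocytes reached at most 0.556, 0.124 and 0.117 CPM and those of fibroblasts 2.22 CPM. Atxn2, the targeted gene, was 123 ± 1.78 CPM in untransfected cells and 52.0 ± 2.77 CPM with the ASO (SD, n = 3 each), which differed by -1.25 on the log2 scale (standard error 0.0391, edgeR adjusted p = 1.65e-19). With the mATXN2-targeting crRNA it changed by -0.10 with RfxCas13d (edgeR adjusted p = 0.178), -0.23 with HiFi-RfxCas13d (0.00157) and -0.20 with DiCas7-11 (0.00557).

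All 7 ligases were well expressed in Neuro2A cells. Their libraries held from 1260 expected counts, the lowest for Herc2, to 21300, the highest for Huwe1. Levels of different genes are compared only per kilobase of transcript. On that scale, in untransfected cells, Huwe1 was highest at 51.6 ± 3.12 CPM per kilobase and Trip12 next at 42.7 ± 1.2 (SD, n = 3 each). Birc6 (15.7 ± 0.267), Ubr4 (15.3 ± 1.55), Mycbp2 (13 ± 0.804), Herc1 (10.9 ± 0.414) and Herc2 (7 ± 0.491) followed in CPM per kilobase (SD, n = 3 each). Birc6 and Ubr4 differed by less than the SD of Ubr4, so their order was not resolved there. With the ASO, Ubr4 reached 23.3 ± 0.701 CPM per kilobase and stood above Birc6 at 18 ± 0.489 and Mycbp2 at 17.6 ± 0.533 (SD, n = 3 each), and the last pair differed by less than its SDs.

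Across the 8 groups, the ratio of the highest to the lowest group mean was 1.75 for Ubr4, 1.60 for Herc2, 1.57 for Herc1, 1.47 for Mycbp2, 1.3 for Huwe1, 1.15 for Birc6 and 1.05 for Trip12. The ASO group was the highest for all of them but Trip12. The lowest group was RfxCas13d NTG for Ubr4, Herc2, Mycbp2 and Huwe1, HiFi-RfxCas13d NTG for Herc1, and the untransfected cells for Birc6 and Trip12.

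**Figure D1:**
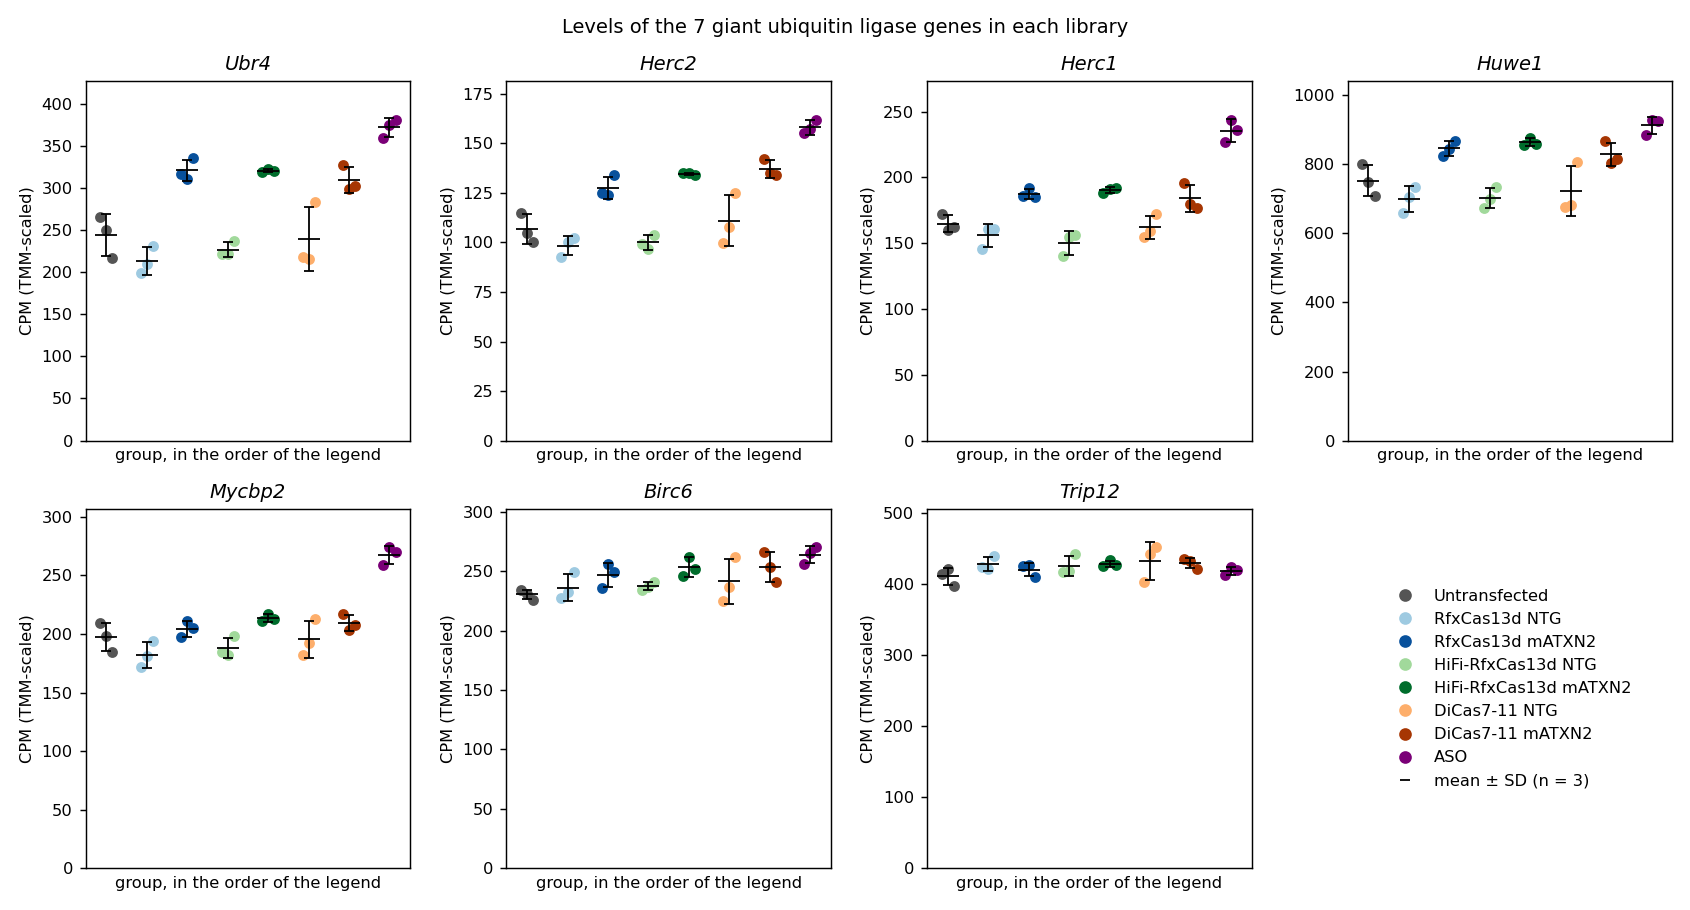
Level of each ligase gene in CPM (vertical axis, starting at 0) in each of the 24 libraries, by group; points are libraries and bars the mean ± SD of 3. In the Ubr4 panel the 9 mATXN2 libraries lie at 299 to 335 CPM and the 9 NTG libraries at 199 to 283 CPM, whereas the 24 Trip12 libraries lie between 398 and 452 CPM.

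With RfxCas13d, the mATXN2-targeting crRNA raised the transcripts of 4 of the 7 ligases over the NTG crRNA, namely Ubr4, Herc2, Huwe1 and Herc1, by 20% to 50%. None fell. The comparison asks which transcripts differ once the enzyme is directed to ataxin-2. If the controls held an empty vector, it also covers the presence of a crRNA. By edgeR, 0.914% of all tested genes were called higher and 0.475% lower in this comparison.

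Ubr4, which recognizes N-degrons, was at 199, 210 and 231 CPM in the NTG libraries and at 316, 311 and 335 CPM in the mATXN2 libraries. The lowest mATXN2 library was thus well above the highest NTG library. Its log2 fold change was 0.59 (standard error 0.0701, edgeR adjusted p = 2.86e-05). Herc2, a HECT ligase of the DNA damage response, was at 92.9, 100 and 102 CPM with NTG and 125, 124 and 134 CPM with mATXN2. The groups did not overlap, and the log2 fold change was 0.37 (standard error 0.0548, edgeR adjusted p = 3.70e-04). Huwe1, a HECT ligase of Mcl1, p53 and Myc proteins, was at 659, 705 and 735 CPM with NTG and 825, 845 and 866 CPM with mATXN2. Again every mATXN2 library was higher, with a log2 fold change of 0.27 (standard error 0.0484, edgeR adjusted p = 0.00238). The call of Huwe1 was lost without NTG replicate 1 (0.23, edgeR adjusted p = 0.0516). Herc1, the relative of Herc2 that acts on Tsc2, was at 146, 161 and 161 CPM with NTG and 186, 192 and 185 CPM with mATXN2, likewise without overlap (log2 fold change 0.26, standard error 0.0454, edgeR adjusted p = 0.00176).

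The other 3 ligases did not pass. Mycbp2 was at 172, 181 and 194 CPM with NTG and 197, 211 and 205 CPM with mATXN2. Although these groups did not overlap either, its log2 fold change of 0.16 had an edgeR adjusted p of 0.0918. By DESeq2 and by limma-trend it passed (adjusted p = 0.0241 and 0.0169). Birc6 had a log2 fold change of 0.07 (95% interval -0.02 to 0.16, edgeR adjusted p = 0.528) and Trip12 one of -0.03 (95% interval -0.09 to 0.04, edgeR adjusted p = 0.793). Libraries of both groups overlapped for each of these genes. Non-overlap with higher mATXN2 libraries was found for 10.3% of all tested genes.

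With HiFi-RfxCas13d, a variant engineered for less collateral cleavage, the same 4 genes were called higher with the mATXN2-targeting crRNA, where 0.281% of all tested genes were. Ubr4 was at 221, 222 and 237 CPM with NTG and 319, 322 and 320 CPM with mATXN2. The 3 mATXN2 libraries lay within 3 CPM of each other, far above the NTG libraries, and the log2 fold change was 0.50 (standard error 0.0691, edgeR adjusted p = 2.49e-04). Herc2 was at 99.3, 96.7 and 104 CPM with NTG and 135, 135 and 134 CPM with mATXN2. Here too the groups were apart, with a log2 fold change of 0.43 (standard error 0.0536, edgeR adjusted p = 5.15e-05). Herc1 was at 140, 155 and 156 CPM with NTG and 188, 191 and 192 CPM with mATXN2 (log2 fold change 0.34, standard error 0.0449, edgeR adjusted p = 1.30e-04). Huwe1 was at 674, 699 and 733 CPM with NTG and 854, 876 and 859 CPM with mATXN2 (log2 fold change 0.30, standard error 0.0481, edgeR adjusted p = 0.00164). Neither gene had overlapping groups, as was the case for 6.97% of all tested genes in the higher direction. No library left out ended one of the 4 calls.

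Mycbp2 was higher in all 3 mATXN2 libraries (211, 217 and 213 CPM) than in the NTG libraries (185, 182 and 198 CPM). Its log2 fold change of 0.18 had an edgeR adjusted p of 0.123, and it passed by DESeq2 (adjusted p = 0.0134) and limma-trend (adjusted p = 0.00786). Birc6 was at 234, 237 and 241 CPM with NTG and 246, 262 and 252 CPM with mATXN2, groups that did not overlap, with a log2 fold change of 0.10 (95% interval 0.01 to 0.18, edgeR adjusted p = 0.613). Trip12 differed by 0.01 on the log2 scale (95% interval -0.05 to 0.08).

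With DiCas7-11, an effector of another CRISPR type, the calls depended on single libraries. Ubr4, Herc2, Huwe1 and Herc1 were called higher again, where 0.554% of all tested genes were. Ubr4 was at 218, 216 and 283 CPM with NTG and 327, 299 and 302 CPM with mATXN2. NTG replicate 3 stood above its group but below the mATXN2 libraries (log2 fold change 0.37, standard error 0.0693, edgeR adjusted p = 0.00557). Herc2 showed the same arrangement, at 99.9, 108 and 125 CPM with NTG and 142, 135 and 134 CPM with mATXN2 (log2 fold change 0.30, standard error 0.0533, edgeR adjusted p = 0.00349). Herc1 was at 155, 159 and 172 CPM with NTG and 196, 180 and 177 CPM with mATXN2 (log2 fold change 0.19, standard error 0.0450, edgeR adjusted p = 0.0337). Huwe1 was at 677, 683 and 805 CPM with NTG and 866, 804 and 816 CPM with mATXN2, so that NTG replicate 3 overlapped the mATXN2 libraries (log2 fold change 0.20, standard error 0.0482, edgeR adjusted p = 0.0361). Genes without overlap in the higher direction made up 7.25% of all tested genes.

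Without NTG replicate 3, the log2 fold changes with DiCas7-11 were 0.52 for Ubr4, 0.40 for Herc2, 0.29 for Huwe1 and 0.24 for Herc1, and all 4 genes passed. Fewer passed when another library was left out. Leaving out NTG replicate 1 left 2 ligases called, and leaving out NTG replicate 2 left 0. Leaving out mATXN2 replicate 1, 2 or 3 left 1, 2 and 3 of them, respectively. With only the 6 libraries compared, 0 were called (edgeR adjusted p = 0.0824 for Herc2 and 0.0835 for Ubr4). The folds moved less than the calls, with Herc2 at 0.28 and Ubr4 at 0.30 on the log2 scale without NTG replicate 2, and at 0.30 and 0.37 with only the 6 libraries. Mycbp2 (log2 fold change 0.10, edgeR adjusted p = 0.358), Birc6 (0.07, adjusted p = 0.507) and Trip12 (-0.01, adjusted p = 0.941) did not pass, and their groups overlapped.

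**Figure D2:**
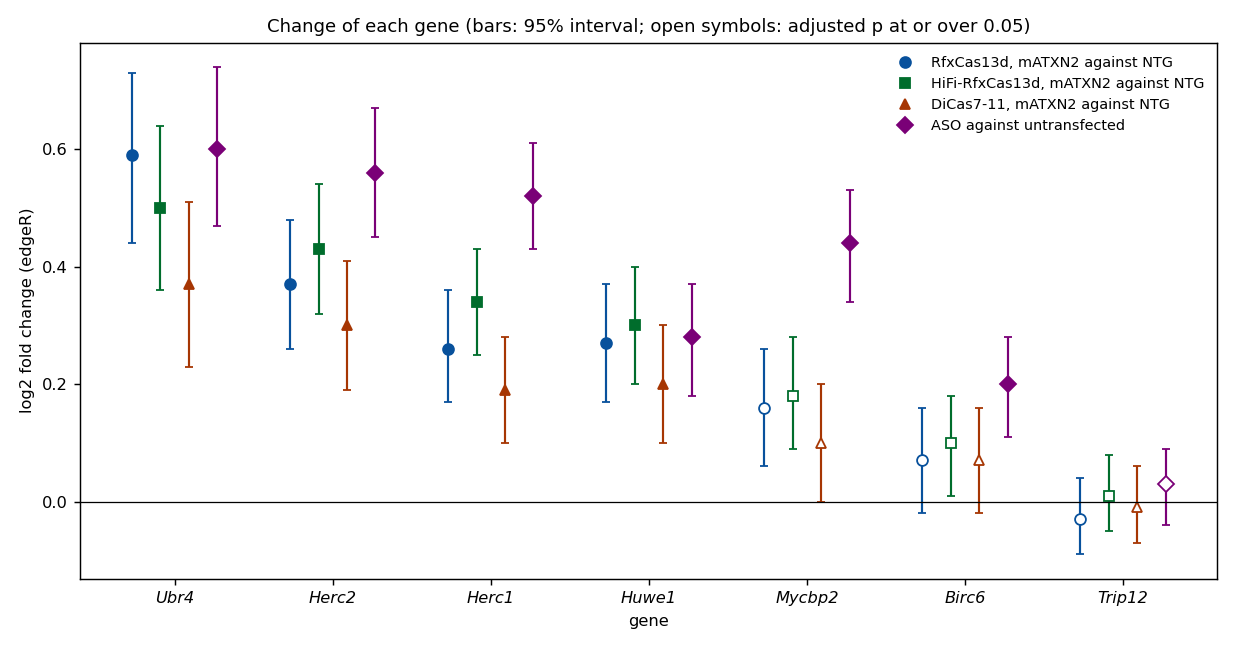
log2 fold change of each ligase (vertical axis) for mATXN2 against NTG with each effector and for the ASO against untransfected cells; bars are 95% intervals of edgeR's fit, and open symbols did not pass. For Ubr4 the values are 0.59, 0.50, 0.37 and 0.60, and for Trip12 they lie between -0.03 and 0.03.

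Averaged over the 3 effectors, 5 ligases were higher with the mATXN2-targeting crRNA, where 2.95% of all tested genes were called higher. The mean log2 fold change was 0.49 for Ubr4 (standard error 0.0401, edgeR adjusted p = 4.24e-09), 0.37 for Herc2 (5.45e-09), 0.26 for Herc1 (7.18e-08), 0.26 for Huwe1 (3.90e-07) and 0.15 for Mycbp2 (0.0012), all by edgeR. Birc6 had a mean log2 fold change of 0.08 (edgeR adjusted p = 0.0662), which passed by DESeq2 (adjusted p = 0.034), and Trip12 one of -0.01 (95% interval -0.05 to 0.03). Beside untransfected cells at 244 CPM, group means of Ubr4 were 213, 227 and 239 CPM with NTG and 321, 320 and 310 CPM with mATXN2 (RfxCas13d, HiFi-RfxCas13d and DiCas7-11). Those of Mycbp2 were 197 CPM in untransfected cells, 182, 188 and 195 CPM with NTG and 204, 214 and 209 CPM with mATXN2. For both genes, the NTG means thus lay below the untransfected mean.

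Differences between effectors in these responses were not resolved. By edgeR, no gene of the 13901 was called for any pair of effectors, while 855, 1084 and 1028 genes had an unadjusted p under 0.05 for HiFi-RfxCas13d minus RfxCas13d, DiCas7-11 minus RfxCas13d and DiCas7-11 minus HiFi-RfxCas13d. DESeq2 called 0, 3 and 3 genes, none of them a ligase. The response of Ubr4 differed by -0.21 on the log2 scale for DiCas7-11 minus RfxCas13d (95% interval of the difference -0.41 to -0.01, unadjusted p = 0.0398, edgeR adjusted p = 0.631), and the other two differences of Ubr4 were -0.13 for DiCas7-11 minus HiFi-RfxCas13d (-0.33 to 0.07) and -0.09 for HiFi-RfxCas13d minus RfxCas13d (-0.29 to 0.11). The difference of Ubr4 between DiCas7-11 and RfxCas13d was called when every gene with a nonzero count was tested (edgeR adjusted p = 0.00116). Without DiCas7-11 NTG replicate 3, the response of Ubr4 with DiCas7-11 came closer to that with RfxCas13d. Its difference from HiFi-RfxCas13d then turned to 0.02. The difference of Herc1 for DiCas7-11 minus HiFi-RfxCas13d was -0.15 (-0.28 to -0.02, unadjusted p = 0.0239, edgeR adjusted p = 0.635). For Herc2 the 3 differences lay between -0.13 and 0.07 and for Huwe1 between -0.10 and 0.03, with intervals that included 0.

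NTG libraries stood beside untransfected cells as the transfection controls. By edgeR, 11.3% of all tested genes were called in either direction with RfxCas13d, 20.9% with HiFi-RfxCas13d and 21.9% with DiCas7-11, against 0, 1 and 0 of the 7 ligases. With only 7 genes, such counts cannot be told apart from the shares of all genes. Other settings called up to 3 ligases. Without adjustment, 4 ligases had a p under 0.05 with RfxCas13d (24.8% of all tested genes) and 1 with DiCas7-11 (33.9%), and DESeq2 and limma-trend called 0 in both. With HiFi-RfxCas13d, Herc1 and Huwe1 had an unadjusted edgeR p under 0.05 (0.00958 and 0.0469), as had 4544 of all 13901 tested genes. Ubr4 was at 265, 250 and 217 CPM in untransfected cells, a range that overlapped each of the NTG groups. Its log2 fold change was -0.19 with RfxCas13d (edgeR adjusted p = 0.0782), -0.11 with HiFi-RfxCas13d (0.301) and -0.03 with DiCas7-11 (0.811). Without untransfected replicate 3 or RfxCas13d NTG replicate 3, the difference of Ubr4 with RfxCas13d passed (-0.27 and -0.25, edgeR adjusted p = 0.0215 and 0.0454). Without DiCas7-11 NTG replicate 3, that of Ubr4 with DiCas7-11 was -0.17 (edgeR adjusted p = 0.0404) and that of Huwe1 -0.15 (0.0158). Without DiCas7-11 NTG replicate 1, Trip12 passed with DiCas7-11 (0.12, edgeR adjusted p = 0.00173).

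Herc1 was the ligase called, at 172, 160 and 162 CPM in untransfected cells and 140, 155 and 156 CPM with HiFi-RfxCas13d and NTG (log2 fold change -0.13, standard error 0.0462, edgeR adjusted p = 0.0468). All 3 NTG libraries were lower, as was so for 18% of all tested genes. This call was lost without untransfected replicate 1 (-0.09), replicate 2 (-0.15) or replicate 3 (-0.14), and without NTG replicate 1 (-0.08), with edgeR adjusted p-values of 0.231, 0.0504, 0.0627 and 0.265. Birc6 and Trip12 had values above 0 with all 3 effectors, at 0.03 to 0.07 and 0.05 to 0.07 on the log2 scale, and did not pass.

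The ASO gave the highest levels of 6 ligases. Against untransfected cells, Ubr4, Herc2, Herc1, Mycbp2, Huwe1 and Birc6 rose by 14.5% to 52.1%, and Trip12 did not pass. By edgeR, 21% of all tested genes were called higher in this comparison and 25.8% had no overlap in that direction. No group received a control oligonucleotide, so effects of ataxin-2 loss and of the oligonucleotide or its delivery cannot be told apart. Ubr4 was at 359, 375 and 381 CPM with the ASO (log2 fold change 0.60, standard error 0.0680, edgeR adjusted p = 2.70e-08). Herc2 was at 115, 105 and 100 CPM in untransfected cells and 155, 157 and 162 CPM with the ASO (log2 fold change 0.56, standard error 0.0521, edgeR adjusted p = 7.52e-10). Herc1 was at 227, 244 and 236 CPM with the ASO (log2 fold change 0.52, standard error 0.0436, edgeR adjusted p = 1.19e-10). For these genes every ASO library lay above every other library of the study.

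Mycbp2, which edgeR called with no single effector, was at 209, 198 and 185 CPM in untransfected cells and 259, 274 and 270 CPM with the ASO. It rose by 0.44 on the log2 scale (standard error 0.0468, edgeR adjusted p = 1.15e-08). Huwe1 was at 800, 748 and 709 CPM in untransfected cells and 883, 929 and 924 CPM with the ASO (log2 fold change 0.28, standard error 0.0479, edgeR adjusted p = 2.71e-05). Birc6 was at 234, 231 and 226 CPM in untransfected cells and 256, 265 and 270 CPM with the ASO (log2 fold change 0.20, standard error 0.0423, edgeR adjusted p = 4.17e-04). The groups did not overlap for any of these 3 genes. Trip12 was at 414, 421 and 398 CPM in untransfected cells and 413, 424 and 420 CPM with the ASO (log2 fold change 0.03, 95% interval -0.04 to 0.09, edgeR adjusted p = 0.523). The ASO libraries were also the deepest, their summed neuroblast markers were 1190 to 1226 CPM against 1227 to 1253 CPM in untransfected cells, and 4 of 11 tested markers were called higher and 4 lower. The part of depth and of these markers in the differences was not tested.

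Against the mean of the 3 NTG groups, the ASO was again higher for these 6 ligases, where 19.5% of all tested genes were called higher. The log2 fold change was 0.72 for Ubr4 (standard error 0.0529, edgeR adjusted p = 9.33e-12), 0.62 for Herc2, 0.59 for Herc1, 0.50 for Mycbp2, 0.37 for Huwe1 and 0.15 for Birc6 (edgeR adjusted p = 8.06e-04). All 3 ASO libraries exceeded all 9 NTG libraries for 5 of them, as for 11.8% of all tested genes, whereas those of Birc6 overlapped. For Trip12 the log2 fold change was -0.03 (95% interval -0.09 to 0.02), and -0.05 with an edgeR adjusted p of 0.0472 without DiCas7-11 NTG replicate 1. This comparison shares its NTG libraries with those of the mATXN2-targeting crRNA, so that the values of both stand side by side and no overlap between them is given.

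Other genes with very long coding sequences were also higher with the mATXN2-targeting crRNA and the ASO. Apart from the 7 genes, 58 tested genes had a coding sequence of at least 10000 bases, among them Syne1 (26397 bases) and Dst (23151 bases). Their median log2 fold change for mATXN2 against NTG was 0.20 with RfxCas13d, 0.23 with HiFi-RfxCas13d and 0.22 with DiCas7-11, and 19, 16 and 17 of the 58 were called higher and 0 lower. The median of the ligases was 0.26, 0.30 and 0.19, and that of all tested genes 0.00 in each case. With the ASO against untransfected cells, the median of the 58 genes was 0.38, with 38 called higher and 3 lower, and that of the ligases 0.44. Against the mean of the NTG groups, the medians were 0.47 and 0.50. Genes with shorter coding sequences differed less. For the mean response to the mATXN2-targeting crRNA, 24.4% of 484 genes of 5000 to 10000 bases were called higher (median 0.05), and 2.32% of 3193 genes of 2000 to 5000 bases (median -0.01).

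Within genes of like coding length, the ligases were spread out. Among the 64 tested genes of at least 10000 bases, ranked by the mean mATXN2 response from the highest, Ubr4 was 3rd, Herc2 13th, Herc1 23rd, Huwe1 25th, Mycbp2 42nd and Birc6 51st. For the ASO against untransfected cells, Ubr4 was 15th, Herc2 19th, Herc1 27th, Mycbp2 30th, Huwe1 39th and Birc6 46th. Trip12 ranked 362nd of 485 genes of 5000 to 10000 bases for the mean mATXN2 response and 310th for the ASO. These ranks are descriptions.

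**Figure D3:**
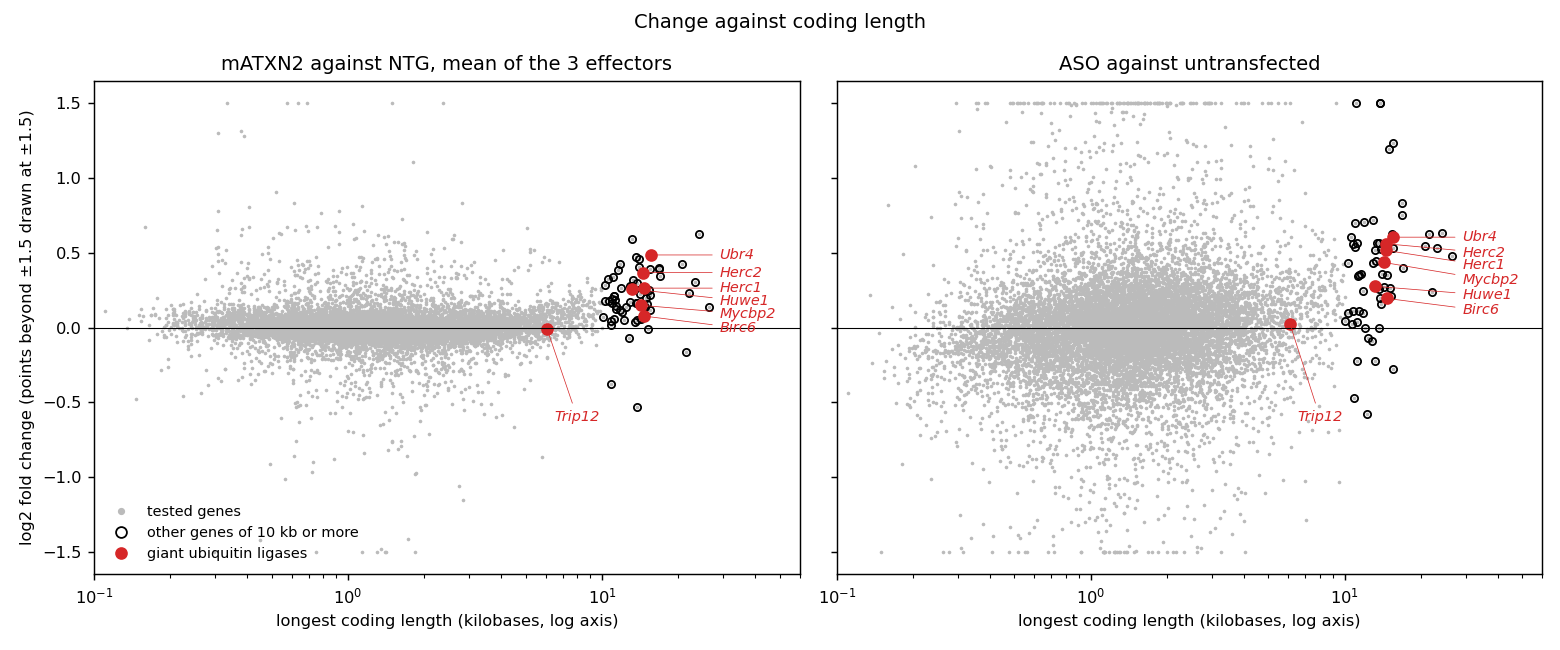
log2 fold change (vertical axis, drawn within ±1.5) against the longest coding length in kilobases (horizontal log axis) for tested genes, with other genes of at least 10 kb as open circles and the ligases in red. In both panels most of the open circles lie above 0, with medians of 0.19 and 0.38 on the log2 scale, and Trip12 lies near 0 at a shorter length.

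A correction that removes from each library its trend with coding length brought every called value for the mATXN2-targeting crRNA and the ASO down. With RfxCas13d, Ubr4 (0.41, edgeR adjusted p = 2.29e-07), Herc2 (0.20, 0.00164) and Huwe1 (0.12, 0.0128) remained called and Herc1 did not (0.09, 0.217). With HiFi-RfxCas13d, Ubr4 (0.31, edgeR adjusted p = 3.72e-05), Herc2 (0.25, 6.03e-05) and Huwe1 (0.13, 0.00919) remained called and Herc1 did not (0.16, 0.0653). With DiCas7-11, Ubr4 (0.21, edgeR adjusted p = 0.00489) and Herc2 (0.14, 0.0295) remained called, whereas Huwe1 (0.05, 0.311) and Herc1 (0.03, 0.820) did not. In the mean response, Mycbp2 and Birc6 turned direction, to -0.02 (edgeR adjusted p = 0.62) and -0.09 (9.46e-04), and Trip12 went from -0.01 to -0.06 (0.0173). For the ASO against untransfected cells, Ubr4 (0.30), Herc2 (0.27), Herc1 (0.23) and Mycbp2 (0.15) remained higher, Huwe1 did not pass (0.01, edgeR adjusted p = 0.795), and Birc6 (-0.10, 0.00666) and Trip12 (-0.07, 0.0178) were lower. Against the mean of the NTG groups, the corrected values were 0.36 for Ubr4, 0.27 for Herc2, 0.25 for Herc1, 0.17 for Mycbp2 and 0.05 for Huwe1, and -0.20 for Birc6 and -0.15 for Trip12, all of them called. Against untransfected cells, the correction gave called values for Birc6 (0.11, 0.10 and 0.09) and Trip12 (0.09, 0.07 and 0.08) with the NTG crRNA of RfxCas13d, HiFi-RfxCas13d and DiCas7-11. What underlies the trend with coding length was not tested.

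**Figure D4:**
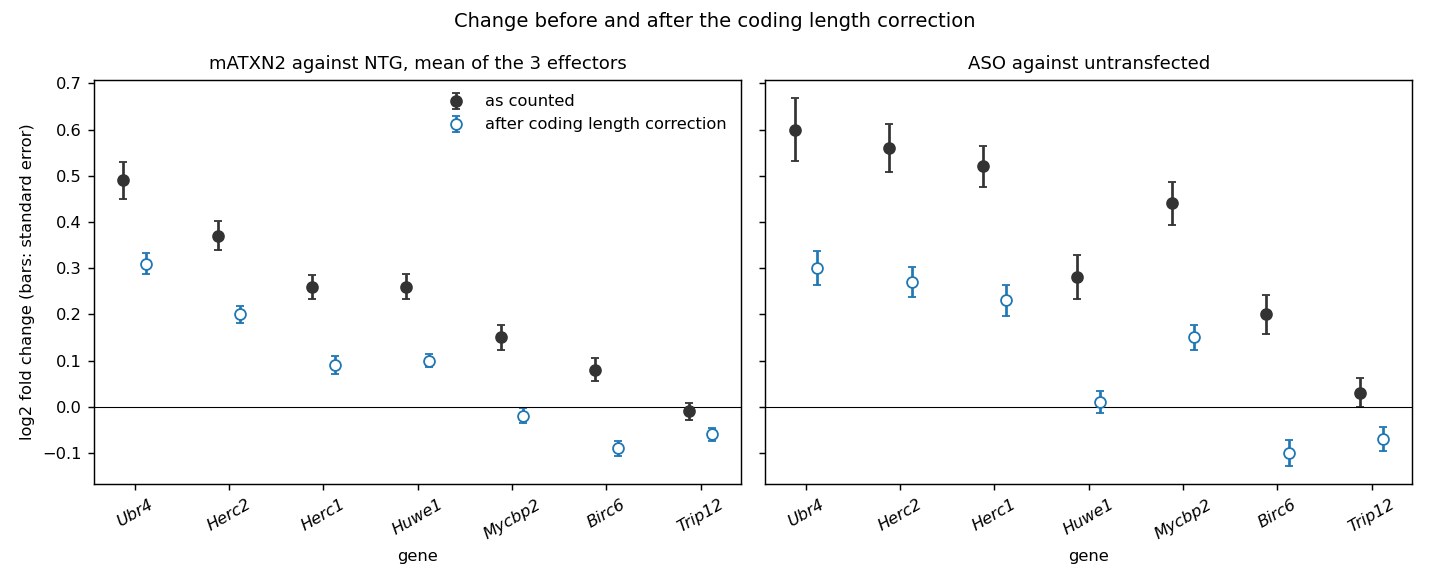
log2 fold change of each ligase (vertical axis; bars are standard errors) as counted and after the coding length correction, for the mean mATXN2 response and for the ASO against untransfected cells. Ubr4 goes from 0.49 to 0.31 and from 0.60 to 0.30, and Birc6 goes from 0.08 to -0.09 and from 0.20 to -0.10.

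The ligases also varied together over the 24 libraries. Between Ubr4, Herc2, Herc1, Huwe1, Mycbp2 and Birc6, Pearson correlations of log2 CPM lay between 0.792 (Birc6 with Herc1) and 0.983 (Ubr4 with Huwe1). Trip12 had correlations of 0.00622 to 0.12 with all of them but Birc6 (0.452). The 24 points share libraries and fall into 8 groups, so these are descriptions, as are the following. Of 10906 other genes with a mean of at least 50 counts, those whose levels were most like the mean profile of the ligases were Mdn1 (Pearson r = 0.971), Dst (0.966), Wdfy3 (0.953), Dync1h1 (0.941) and Kif1b (0.936). Their coding sequences are 16767, 23151, 10578, 13932 and 5448 bases long.

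Some other genes of the ubiquitin system were called with the mATXN2-targeting crRNA. Of all tested genes, 0.914%, 0.281% and 0.554% were called higher with RfxCas13d, HiFi-RfxCas13d and DiCas7-11. In lists of 6 to 35 tested genes, 1 called gene is already a larger share than these. Of 19 tested HECT ligases outside the group, 1 was called with each effector, Hectd4, which rose by 0.33, 0.34 and 0.29 on the log2 scale with RfxCas13d, HiFi-RfxCas13d and DiCas7-11 (edgeR adjusted p = 0.0161, 0.0224 and 0.0392). The medians of the 19 were -0.03, -0.02 and -0.03, and in the mean response 2 were called higher and 3 lower, among them Hectd4 (0.32), Herc3 (-0.12) and Herc6 (-0.16), where 410 of all 13901 tested genes were called higher and 312 lower. Of 6 other UBR-box proteins, the relatives of Ubr4, 0 were called with any effector, and 2 of the 6 were called higher by edgeR in the mean response, among them Ubr2 at 0.06. Of 9 inhibitor-of-apoptosis genes and antagonists, the relatives and targets of Birc6, 0 were called in any of these comparisons, with medians of -0.03 to 0.00. Of 11 partners of the ligases and 14 of their substrates, 0 were called with any effector, while Mapk6 (-0.07) and Usp33 (-0.09) were lower in the mean response. Of 35 ubiquitin genes and proteasome subunits, 3, 1 and 2 were called higher and 0 lower with RfxCas13d, HiFi-RfxCas13d and DiCas7-11, among them the proteasome subunit Psmb3 with RfxCas13d (0.16, edgeR adjusted p = 0.00759), and 4 were higher in the mean response. Of 33 E1 and E2 enzymes, Ube2h was lower with RfxCas13d (-0.15, edgeR adjusted p = 0.026), and 1 was higher and 1 lower in the mean response. Of 11 large deubiquitinases, 0 were called with any effector and 1, Usp24, was higher in the mean response (0.09, edgeR adjusted p = 0.0248).

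With the ASO against untransfected cells, where 21% of all tested genes were called higher and 21.7% lower, most of these lists had members called in both directions. Other HECT ligases were called higher in 6 and lower in 7 of 19, with Hectd4 at 0.45 and Herc3 at -0.31 on the log2 scale. UBR-box proteins were higher in 4 and lower in 0 of 6, led by Ubr3 at 0.37 (edgeR adjusted p = 3.92e-10). Large deubiquitinases were higher in 5 and lower in 0 of 11, led by Usp24 at 0.60 (edgeR adjusted p = 1.29e-12). Inhibitor-of-apoptosis genes and antagonists were higher in 1 and lower in 4 of 9, among them Xiap at -0.20. Partners were higher in 2 and lower in 3 of 11, E1 and E2 enzymes in 10 and 7 of 33, and ubiquitin and proteasome genes in 7 and 5 of 35. Of the substrates, 3 were higher and 3 lower of 14. Usp33 was higher at 0.11 (edgeR adjusted p = 0.00658). Lower ones included Mycn, a substrate of Huwe1, at -0.50 (edgeR adjusted p = 1.86e-04) and Nmnat2, a substrate of Mycbp2, at -0.23 (edgeR adjusted p = 1.11e-06). Nmnat2 was also called lower with NTG against untransfected cells, with HiFi-RfxCas13d (-0.15) and DiCas7-11 (-0.18). These values are of mRNA and do not measure substrate protein. The medians of all these lists lay between -0.04 and 0.14, against 0.44 for the 7 ligases.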

How the data were processed

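RNA was sequenced from 24 Neuro2A samples with a stranded mRNA kit. The authors quantified reads with Salmon (version 1.5.2) against the NCBI mouse transcriptome of GRCm39 and summed them to genes with tximport (lengthScaledTPM); the deposited values are expected counts on the scale of each library. Each column was assigned by its effector, arm and number, and 0 columns were left unused.

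Counts were rounded for edgeR (version 4.0.16, R 4.3.3). The 13901 genes that reached 0.5 CPM in 3 or more libraries were scaled by TMM, and the quasi-likelihood test was run on 1 model holding all 8 groups. P-values were adjusted by Benjamini-Hochberg within each comparison (threshold 0.05). CPM values are TMM-scaled; marker sums use deposited totals. Totals of 12665725 to 22504999 limit precision, as does the spread between 3 replicates. Coding lengths came from GENCODE M21 (GRCm38, another build) for 87.2% of tested genes; the correction subtracts a lowess curve (span 0.3) from each library. Levels per kilobase use the length of the same transcript. Alternatives were DESeq2 (version 1.42.0), limma-trend (version 3.58.1, adjusted over 10 comparisons together), other size factors, no filter, only the samples compared, a replicate block and leaving out each library. Scripts were tested on simulated data. The ligases and gene lists were chosen with earlier results of these data known. Named genes were the ligases, Atxn2, up to 4 called genes per list by adjusted p (otherwise the most expressed), the 5 genes most like the ligases and the 3 longest other genes. Protein sequences were not used here, and some genes this rule names are not reported here.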

Additional observations from a re-analysis of the deposited data

How the results depend on the processing

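Of the single-gene values, 1094 kept their direction and side of the threshold under an alternative, 46 passed only there, 33 lost their call and 49 turned direction.

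The number of ligases called with DiCas7-11, 4 as reported, was 2 with the coding length correction, with or without the replicate block, 0 with only the samples compared, and 0 to 4 without a single library. For NTG against untransfected cells, it was 3, 3 and 1 when every gene with a nonzero count was tested (RfxCas13d, HiFi-RfxCas13d and DiCas7-11), 2, 2 and 2 with the coding length correction, and 3, 2 and 2 with the replicate block added to it. It was 1 for RfxCas13d with only the samples compared and 0 for HiFi-RfxCas13d with DESeq2 size factors, and, without a single library, 0 to 1, 0 to 1 and 0 to 2. The response difference of DiCas7-11 minus RfxCas13d was called for 1 ligase, Ubr4, when every gene was tested. Apart from the coding length correction, whose own construction removes part of a long gene's change, the cause was not tested.

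With the coding length correction, Birc6 turned to -0.10, -0.09 and -0.09 for mATXN2 against NTG (RfxCas13d, HiFi-RfxCas13d, DiCas7-11), -0.09 in their mean, and -0.10 and -0.20 for the ASO against untransfected cells and NTG; Mycbp2 to -0.0011 (-0.001 with the block) with RfxCas13d, -0.06 with DiCas7-11 and -0.02 in the mean, and to 0.01 for DiCas7-11 NTG; Trip12 to -0.04 with HiFi-RfxCas13d and -0.07 for the ASO; and Herc1 to 0.0024 (0.0032 with the block) for RfxCas13d NTG and 0.0034 (0.0036) for DiCas7-11 NTG. With the block, the others had the same values, but calls could differ. Birc6 with RfxCas13d had an edgeR adjusted p of 0.0885 with the correction and 0.047 with the block added. Herc1 with HiFi-RfxCas13d lost its call with the correction alone and kept it with the block added.

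Leaving out single libraries turned small values. For mATXN2 against NTG, Trip12 ranged from -0.0018 to 0.04 with HiFi-RfxCas13d, -0.05 to 0.03 with DiCas7-11 and -0.02 to 0.0034 in the mean. For RfxCas13d NTG against untransfected cells, Birc6 ranged from -0.0041 to 0.06. For DiCas7-11 NTG, Herc1 ranged from -0.07 to 0.01, Herc2 from -0.04 to 0.12, Ubr4 from -0.17 to 0.04 and Mycbp2 from -0.08 to 0.03. For the response differences, Huwe1 ranged from -0.01 to 0.07 (HiFi-RfxCas13d minus RfxCas13d) and -0.11 to 0.02 (DiCas7-11 minus RfxCas13d), Herc2 from -0.13 to 0.03 (DiCas7-11 minus RfxCas13d) and Ubr4 from -0.20 to 0.02 (DiCas7-11 minus HiFi-RfxCas13d).

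Samples with the same replicate number shared little of their deviations from the group means (correlations -0.20 to 0.31), and the design text calls the replicates independent. The highest correlations, 0.31 for DiCas7-11 replicate 2 and 0.30 for RfxCas13d replicate 3, were between mATXN2 and NTG libraries. With the replicate block, 4, 4 and 4 ligases were called with the effectors, 6 in the mean response (Birc6 passing, adjusted p = 0.0417 by edgeR), 0, 1 and 0 for NTG against untransfected cells and 6 for the ASO in both comparisons.

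Over all genes, edgeR's 193, 41 and 131 calls with the 3 effectors were 434, 201 and 366 without a filter, 292, 46 and 251 with the block, 389, 105 and 1 with only the samples compared, 131, 15 and 118 with the coding length correction, 274, 66 and 286 by DESeq2, and 707, 269 and 636 by limma-trend with adjustment over 10 comparisons together, which changes the method and the adjustment at once.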
